A study of Danio rerio with 3 samples.

Results

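Cyclins, cyclin-dependent kinases (CDKs), centromere proteins, Aurora, Polo-like and Bub1 kinases and kinesin motors were examined in whole zebrafish larvae. The genes were taken by symbol from the deposited expression table: *cenp* followed by a letter, *ccna*, *ccnb*, *ccnd*, *ccne*, *cdk*, *plk* or *kif* followed by a number, and every symbol that begins with *aurk* or *bub1*. This gave 101 of the 28084 rows that name a gene. Each was assigned to a class by role. The 37 assigned to dividing cells are called mitotic members here, and 24 were assigned to resting and nerve cells. The remaining 40 were set apart as having other roles or sharing only a name stem. Among these 40 are *cenpv* and *cenpj*, which carry the symbol of centromere proteins. Their placement was a choice, and it does not mean that they have no part in mitosis.

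A dividing cell builds up cyclins in turn, and each switches on a CDK partner: D cyclins act with *cdk4* and *cdk6* early in the cycle, E cyclins with *cdk2* at the start of DNA synthesis, and A and B cyclins with *cdk2* and *cdk1* up to mitosis. Centromere proteins form the platform where chromosomes attach to the spindle, Aurora, Polo-like and Bub1 kinases govern that attachment, and a set of kinesins sorts spindle microtubules, moves chromosomes and helps to cleave the cell. Relatives of these proteins work outside mitosis, such as *cdk5* with its activators in nerve cells and the *kif1* and *kif5* motors that carry vesicles and organelles along axons.

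RNA was taken from larvae of the AB strain at 6 days post-fertilization (dpf), and each group was sequenced as 1 library. The groups were 5MO, with *atg5* knocked down by a morpholino (an antisense oligonucleotide) against this autophagy gene, 5mRNA, injected with *atg5* mRNA and labelled as overexpressing it, and WT, untreated wild-type larvae. The methods give 30 larvae each for 5MO and WT, and no number for 5mRNA. No library came from larvae with a control injection, so an effect of injection and an effect of *atg5* cannot be told apart in a comparison with WT.

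Levels are given in RPKM, the reads of a gene divided by its length and by all reads counted in that library. Between libraries, a gene was compared by its ratio of read shares, a share being its reads over the read total, with a 95% interval from counting error alone (Clopper-Pearson), called the counting interval. The reads carry no molecular identifiers, so PCR copies count as separate reads, and nothing measures how pools of larvae vary; the interval is a lower limit of the error. With 1 library per group there is no test of a condition and no p-value, and every statement compares libraries. The words higher and lower are used of a single gene where its interval excludes 1. In whole larvae, fewer cells of a type and less RNA per cell cannot be told apart.

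The aligner took between 27492652 and 31140490 read pairs per library, and the read totals behind the RPKM values were 20301332 in 5MO, 21857365 in 5mRNA and 19502144 in WT. The targeted gene *atg5* (ENSDARG00000023396, chromosome 16 from 7463117 to 7499186, danRer10) was at 7.69 RPKM in 5MO, 8.97 in 5mRNA and 9.08 in WT. Its ratio was 0.847 in 5MO over WT, with an interval from 0.731 to 0.980, and 0.989 in 5mRNA over WT, with an interval from 0.861 to 1.14. The injected mRNA was thus not visible as a higher *atg5* level in 5mRNA at this age. The *atg5* level was lower in 5MO than in WT, and how the morpholino acts on the transcript was not tested. Nerve, muscle and red blood cell markers were present in all 3 libraries.

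The mitotic members were scarce and the nerve cell members abundant. The median over genes of the mean RPKM was 1.25 for the 37 mitotic members, 12.6 for the 24 resting and nerve members and 5.90 for the 40 others. All 37 mitotic members were below 10 RPKM in every library, from a mean of 0.180 for the meiotic A cyclin *ccna1* to 5.05 for the Aurora kinase *aurkb*. The axonal motor *kif5aa* alone, at 58.9 RPKM in 5MO, 60.5 in 5mRNA and 59.2 in WT, was near or above the sum of all mitotic members, which was 67.4, 49.9 and 54.5 RPKM in the same order of libraries. Scarcity set the precision. A mitotic member had a median of 46 reads in 5MO, 47 in 5mRNA and 43 in WT, against 563, 615.5 and 592 reads for a resting or nerve member.

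**Figure D1:**
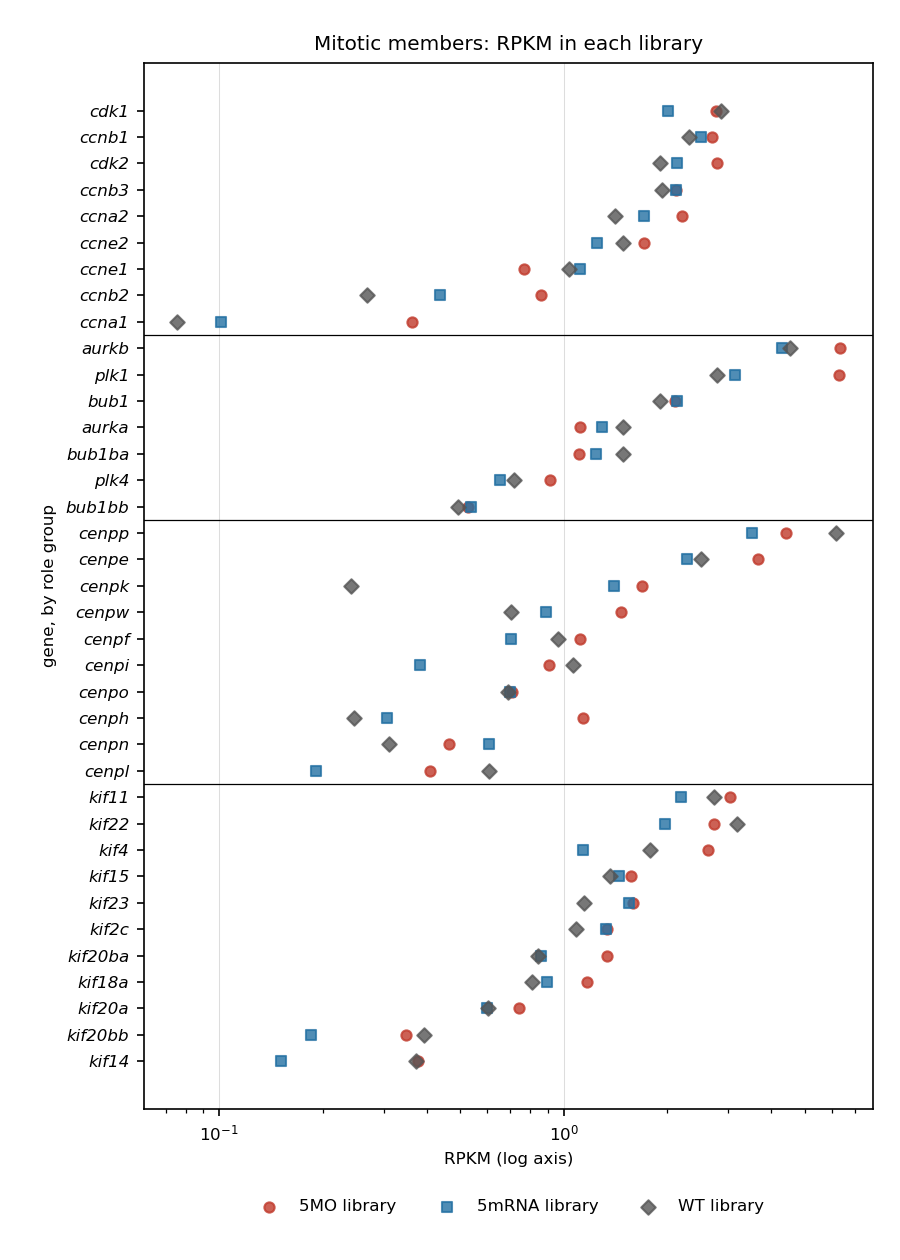
RPKM (log axis) of the 37 mitotic members in the 5MO, 5mRNA and WT libraries, 1 symbol per library, with the genes arranged in 4 role groups from cyclins and CDKs at the top to mitotic kinesins at the bottom. The 5MO symbol is the rightmost for 24 of the 37 genes, the WT symbol for 8 and the 5mRNA symbol for 5.

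As a whole, the mitotic members took more of the reads in 5MO than in either other library. Their reads summed to 2306 in 5MO and 1838 in WT, which gave a ratio of 1.21 (interval 1.13 to 1.28). Against the 1799 reads of 5mRNA, the ratio of 5MO was 1.38, with an interval from 1.30 to 1.47. In 5mRNA over WT it was 0.873, with an interval from 0.818 to 0.932. The 24 resting and nerve members held 26076 reads in 5MO, 27665 in 5mRNA and 24474 in WT, and their ratios were 1.02 in 5MO over WT (interval 1.01 to 1.04), 1.01 in 5mRNA over WT and 1.01 in 5MO over 5mRNA, the last 2 with intervals that include 1. The 40 other members went the same way as the mitotic ones, by less. Their summed ratios were 1.08 in 5MO over WT, 0.943 in 5mRNA over WT and 1.14 in 5MO over 5mRNA. Each of these intervals excludes 1, so the direction of the sums was not particular to the mitotic members. By gene, their intervals lay above 1 for 15 and below 1 for 4 in 5MO over WT. In 5mRNA over WT these numbers were 10 and 9, and in 5MO over 5mRNA 16 and 5. The 3 comparisons share libraries, so each is given by its own values and none supports another.

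Gene by gene, 28 of the 37 mitotic members were above WT in 5MO by any amount and 9 below. Of the 23709 genes whose mean RPKM reached 0.1, 50.7% were above and 49.1% below. All 37 pass that limit, and the log2 ratios that follow are of RPKM + 0.1, which understates the change of low genes. The median log2 ratio of the 37 was 0.21, against 0.01 for all these genes. At least 1.5-fold higher were 8 of the 37 and at least 1.5-fold lower 0, where the shares among all genes were 9.17% and 9.39%. The counting interval lay above 1 for 11 members and below 1 for 1, with 19.0% and 18.5% among all genes. The mitotic members are scarcer than most genes, with a median in WT of 1.08 RPKM against 3.59 for all named genes. Scarce genes have wider intervals and ratios that scatter more. The shares among all genes are thus not those of genes at this level, here and in the other comparisons.

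In 5MO against 5mRNA the lean of the 37 was wider by median and by 1.5-fold count. Of the 37 members 30 were above and 7 below, where 49.5% of all genes were above and 50.3% below, and the median was 0.43, with that of all genes next to 0. At least 1.5-fold higher were 12 members and lower 0, with 9.21% and 9.31% among all genes. The counting interval lay above 1 for 11 members and below 1 for 0, with 19.9% and 20.0% among all genes.

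In 5mRNA against WT the members went both ways. Of the 37, 20 were above and 17 below, where 51.1% of all genes were above and 48.7% below, and the median was 0.03. At least 1.5-fold higher were 2 and lower 7, with 9.06% and 8.74% among all genes. The interval lay above 1 for 1 member, *cenpk*, and below 1 for 8, with 17.5% and 17.0% among all genes. The summed reads, with a ratio below 1, and the median, above 0, thus differ in sign here.

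Part of the mitotic loci overlap another gene of the table, 11 of the 37, and the library kit is not stated to keep the strand, so reads in a shared stretch cannot be told apart. Without these 11, a setting chosen after the values were seen, the summed ratio of the other 26 was 1.17 in 5MO over WT (interval 1.09 to 1.26), 0.869 in 5mRNA over WT (0.805 to 0.939) and 1.35 in 5MO over 5mRNA (1.25 to 1.45). Among the 26, 19 were above and 7 below WT in 5MO, with a median of 0.19, and the same numbers held against 5mRNA, with a median of 0.44. Over the 22 mitotic members with a mean RPKM of at least 1, the median in 5MO over 5mRNA was 0.35, and leaving out their 7 overlapping loci brought it to 0.12. In 5MO over WT the median of the 22 was 0.24, and 0.19 without these loci. With both limits set, the median against 5mRNA was thus the smaller one.

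**Figure D2:**
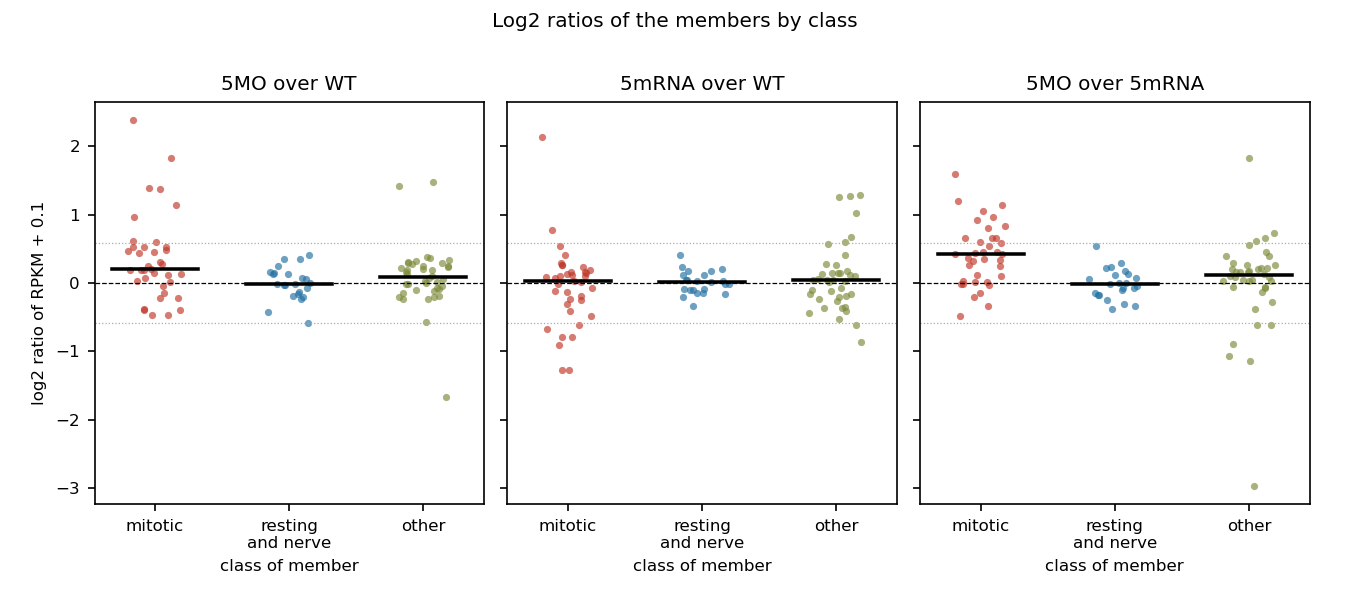
Log2 ratio of RPKM + 0.1 for each member with a mean RPKM of at least 0.1, by class, in 5MO over WT, 5mRNA over WT and 5MO over 5mRNA; a point is a gene, the bar is the class median, and dotted lines mark 1.5-fold. The mitotic medians are 0.21, 0.03 and 0.43, and the medians of resting and nerve members lie at -0.01, 0.01 and -0.02.

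Among the mitotic kinases, *plk1* and *aurkb* were higher in 5MO and the checkpoint kinases were not. *plk1* (ENSDARG00000058471, chromosome 1 from 8469030 to 8477732), the Polo-like kinase that drives spindle assembly and exit from mitosis, was at 6.28 RPKM in 5MO, 3.15 in 5mRNA and 2.79 in WT, from 124, 67 and 53 reads. The 5MO library stood apart from the other 2, with a ratio of 2.25 over WT (interval 1.62 to 3.16) and of 1.99 over 5mRNA (1.47 to 2.72), while 5mRNA over WT gave 1.13 with an interval that includes 1. The locus overlaps *si:ch211-14k19.12* on the opposite strand, which was itself low, at 0.465 RPKM in 5MO, 0.863 in 5mRNA and 0.847 in WT.

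*aurkb* (chromosome 14 from 34043 to 39028), the kinase of the chromosomal passenger complex that corrects faulty attachments, was at 6.33 RPKM in 5MO, 4.30 in 5mRNA and 4.53 in WT, from 93, 68 and 64 reads. Its ratio over 5mRNA was 1.47, with an interval from 1.07 to 2.04. Over WT it was 1.40, and the interval, from 1.005 to 1.95, only just clears 1. Its relative *aurka*, which acts at spindle poles, had 1.11 RPKM in 5MO, 1.29 in 5mRNA and 1.49 in WT, and a ratio of 0.750 in 5MO over WT with an interval from 0.457 to 1.22.

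The checkpoint kinase *bub1* had 2.10 RPKM in 5MO, 2.13 in 5mRNA and 1.90 in WT, a ratio of 1.104 in 5MO over WT (interval 0.785 to 1.56). The BubR1 gene *bub1ba* had 1.104, 1.24 and 1.49 RPKM in the same libraries, and a ratio of 0.742 in 5MO over WT (0.460 to 1.19). Neither was separated beyond counting error in any of the 3 comparisons, though the interval of *bub1* still holds the ratio of *aurkb*. All 7 mitotic and checkpoint kinases together had 441 reads in 5MO, 369 in 5mRNA and 333 in WT, a ratio of 1.27 in 5MO over WT (1.101 to 1.47), of 0.989 in 5mRNA over WT and of 1.29 in 5MO over 5mRNA (1.12 to 1.48). Of the 7, *plk1* held the most of the 5MO reads, 124. By gene, 5 were above and 2 below WT in 5MO, where 50.7% and 49.1% of all genes were. Against 5mRNA, 3 were above and 4 below in 5MO, where 49.5% and 50.3% of all genes were. The median log2 ratio there was -0.02, so that sum does not describe the group gene by gene.

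**Figure D3:**
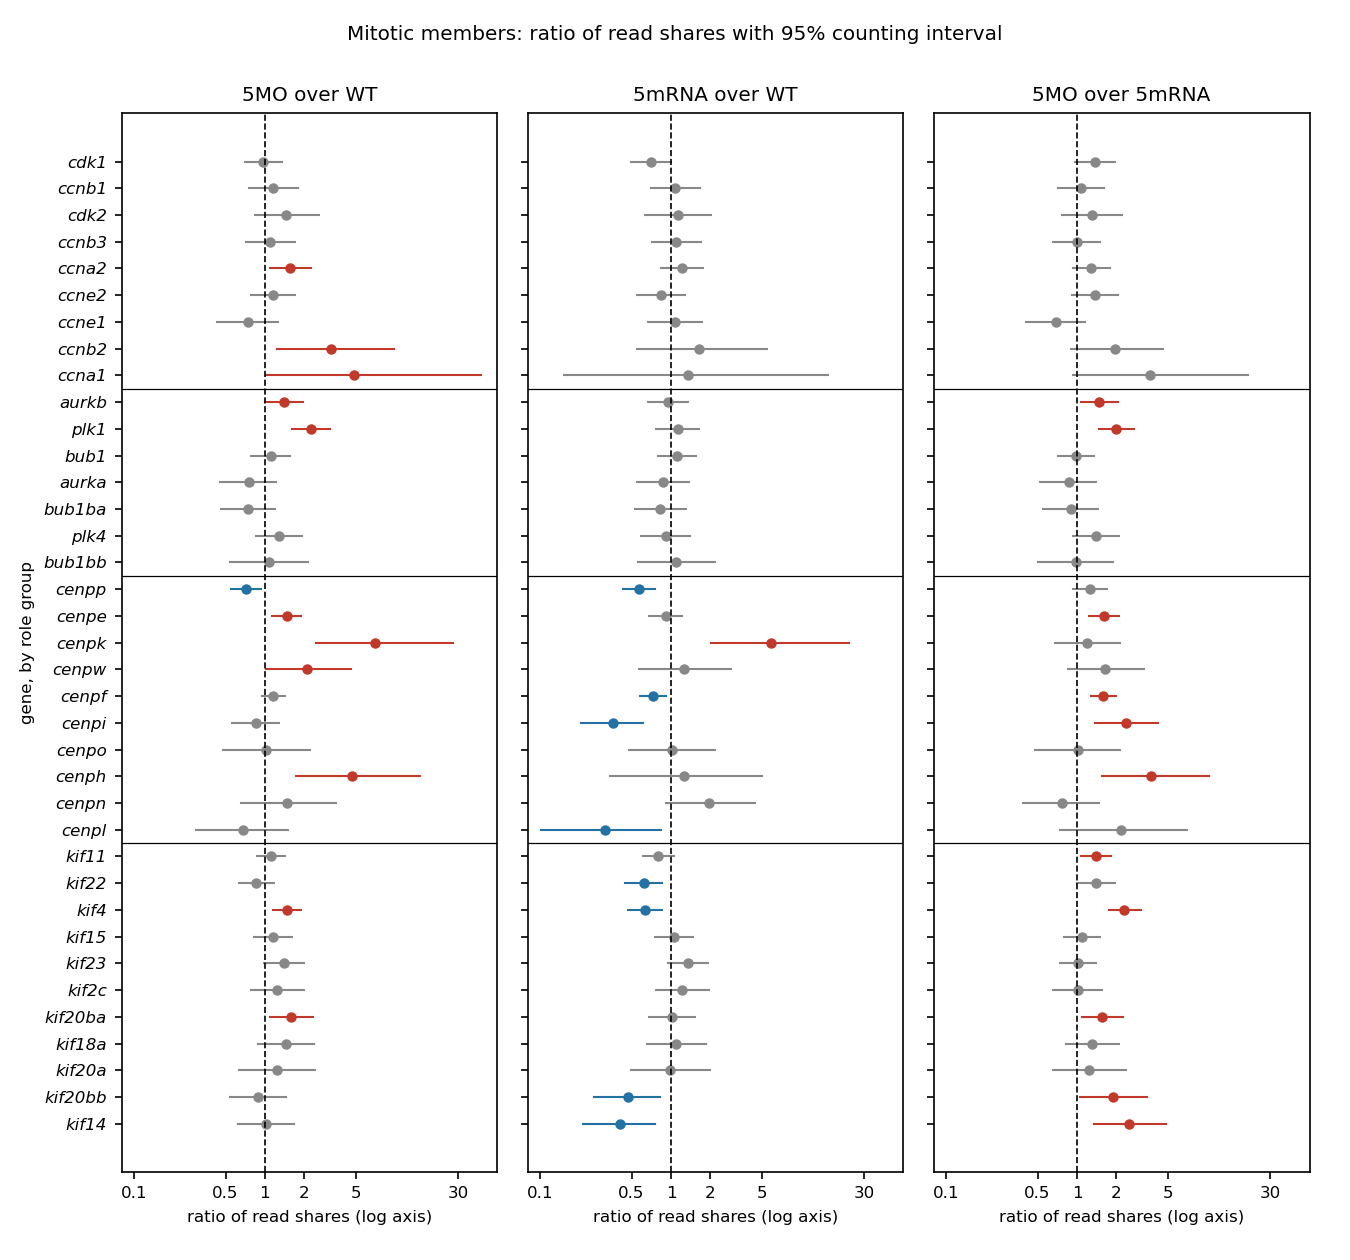
Ratio of read shares (log axis) with its 95% counting interval for the 37 mitotic members in 5MO over WT, 5mRNA over WT and 5MO over 5mRNA; red marks an interval above 1, blue an interval below 1 and grey an interval that includes 1. In 5MO over WT 11 intervals are red and 1 is blue, in 5mRNA over WT 1 is red and 8 are blue, and in 5MO over 5mRNA 11 are red and none is blue.

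Of the cyclins and their CDKs, the A cyclin *ccna2* was the clearest case among those with a mean of at least 1 RPKM. *ccna2* (ENSDARG00000011094, chromosome 14 from 47357470 to 47387584), the partner of *cdk2* and *cdk1* from DNA synthesis to early mitosis, was at 2.20 RPKM in 5MO, 1.71 in 5mRNA and 1.41 in WT, from 86, 72 and 53 reads. It was higher in 5MO than in WT, by a ratio of 1.56 (interval 1.09 to 2.24), with 5mRNA between them and not separated from either. The locus overlaps *tmem33* on the opposite strand, a gene at 12.6 RPKM in 5MO, 8.55 in 5mRNA and 11.8 in WT.

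For the core mitotic pair, 5MO and WT were not separated. *cdk1*, the kinase that starts mitosis, had 2.77 RPKM in 5MO, 2.01 in 5mRNA and 2.85 in WT, and a ratio of 0.973 in 5MO over WT (0.700 to 1.35). Its main partner *ccnb1* had 2.69, 2.499 and 2.32 RPKM in the same libraries and a ratio of 1.16 (0.761 to 1.78). The interval of *ccnb1* still holds the ratio of *ccna2*, and that of *cdk1* overlaps the interval of *ccna2*.

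*ccnb3*, the third B-type cyclin, was at 2.11 RPKM in 5MO, 2.12 in 5mRNA and 1.93 in WT, the most even of the group, with a ratio of 1.09 in 5MO over WT (0.712 to 1.69). *cdk2* had 2.78, 2.14 and 1.90 RPKM and a ratio of 1.46 (0.840 to 2.59), and it overlaps the neurofilament-type gene *prph* on the same strand, at 6.20 RPKM in 5MO, 6.06 in 5mRNA and 4.48 in WT. *ccne2*, an E cyclin, had 1.71, 1.25 and 1.49 RPKM and a ratio of 1.15 (0.779 to 1.71), and on the opposite strand it overlaps a clone-named gene, at 19.7 RPKM in 5MO, 24.1 in 5mRNA and 32.8 in WT. The intervals of all these genes include 1 in the 3 comparisons.

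Summed over the 9 cyclins and CDKs, reads were 416 in 5MO, 369 in 5mRNA and 331 in WT. The ratio was 1.21 in 5MO over WT (1.04 to 1.40), 0.995 in 5mRNA over WT and 1.21 in 5MO over 5mRNA (1.05 to 1.40). Among the scarcer ones, *ccnb2* was named after its values were seen, with 20 reads in 5MO, 11 in 5mRNA and 6 in WT and a ratio of 3.20 in 5MO over WT whose interval runs from 1.24 to 9.74. *ccna1* had 10 reads in 5MO, 3 in 5mRNA and 2 in WT, too few for more than the interval of its ratio in 5MO over WT, 1.02 to 45.1.

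In the comparisons with WT, centromere proteins had members on both sides of 1 beyond counting error. The kinetochore protein gene *cenpk* (ENSDARG00000039616, chromosome 1 from 30776171 to 30783544) was at 1.68 RPKM in 5MO, 1.40 in 5mRNA and 0.242 in WT, from 29, 26 and 4 reads. Here both injected libraries stood above WT and lay close to each other. The ratio was 6.96 in 5MO over WT (2.45 to 27.3) and 5.80 in 5mRNA over WT (2.01 to 22.9), and both rest on the 4 reads of the WT library, while 5MO over 5mRNA gave 1.20 with an interval that includes 1.

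*cenpe* (chromosome 1 from 264860 to 300878), a kinesin motor that brings chromosomes to the spindle equator, was at 3.66 RPKM in 5MO, 2.27 in 5mRNA and 2.497 in WT, from 154, 103 and 101 reads. It was higher in 5MO than in WT by 1.46 (1.13 to 1.90) and than in 5mRNA by 1.61 (1.25 to 2.09). It overlaps *cul4a* on the same strand, which was far more abundant and went the other way, at 47.5 RPKM in 5MO, 52.0 in 5mRNA and 54.1 in WT.

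*cenpw*, which helps to anchor the kinetochore to centromeric DNA, had 1.47 RPKM in 5MO, 0.890 in 5mRNA and 0.704 in WT, from 26, 17 and 12 reads. Its ratio in 5MO over WT was 2.08, with an interval from 1.01 to 4.53, and the row that overlaps it was at 0 in every library. The opposite case was *cenpp* (chromosome 22 from 10411309 to 10484661), the only mitotic member lower in 5MO than in WT, at 4.40 RPKM in 5MO, 3.51 in 5mRNA and 6.16 in WT.

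The ratio of *cenpp* was 0.715 in 5MO over WT (0.546 to 0.935) and 0.570 in 5mRNA over WT (0.429 to 0.754). Its locus holds 4 genes of the opposite strand, *aspn*, *ogn*, *ecm2* and *omd*, which encode proteins of the extracellular matrix. Of these *ogn* was the most abundant, at 13.6 RPKM in 5MO, 12.7 in 5mRNA and 13.7 in WT. How many of the *cenpp* reads come from them cannot be told apart.

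Several scarcer centromere genes, named after their values were seen, were low in 5mRNA or high in 5MO. *cenpf*, a large protein of the outer kinetochore, had 208 reads in 5MO, 141 in 5mRNA and 172 in WT, and ratios of 0.731 in 5mRNA over WT (0.581 to 0.919) and 1.59 in 5MO over 5mRNA (1.28 to 1.98). *cenpi* had 46, 21 and 52 reads in the same libraries and a ratio of 0.360 in 5mRNA over WT (0.206 to 0.609). *cenph* had 24, 7 and 5 reads, and was higher in 5MO than in WT by 4.61 (1.72 to 15.5) and than in 5mRNA by 3.69 (1.54 to 10.1).

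Genes of the same assembly gave unlike ratios. *cenph*, *cenpi* and *cenpk*, whose products sit together in the inner kinetochore, had ratios of 4.61, 0.850 and 6.96 in 5MO over WT, and of 1.25, 0.360 and 5.80 in 5mRNA over WT. The 10 centromere genes summed to 631 reads in 5MO, 447 in 5mRNA and 522 in WT. Their ratio was 1.16 in 5MO over WT (1.03 to 1.31), 0.764 in 5mRNA over WT (0.672 to 0.869) and 1.52 in 5MO over 5mRNA (1.34 to 1.72).

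All 11 mitotic kinesins were above their 5mRNA level in 5MO by any amount, where 49.5% of all genes were. The counting interval lay above 1 for 5 of them, with 19.9% among all genes, and *kif2c* was nearly even, at 1.01. In 5mRNA 5 of the kinesins were above WT and 6 below, where 51.1% and 48.7% of all genes were. *kif4* (ENSDARG00000005462, chromosome 21 from 44713348 to 44748492), a chromosome-bound motor that organizes the central spindle, was at 2.62 RPKM in 5MO, 1.14 in 5mRNA and 1.78 in WT, from 165, 77 and 108 reads. All 3 libraries were separated from each other: the ratio was 1.47 in 5MO over WT (1.14 to 1.89), 0.636 in 5mRNA over WT (0.469 to 0.860) and 2.31 in 5MO over 5mRNA (1.75 to 3.06). No other row overlaps *kif4*.

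*kif20ba*, a motor of the late spindle and of cell cleavage on chromosome 17, had 1.34 RPKM in 5MO, 0.858 in 5mRNA and 0.842 in WT. It was higher in 5MO than in either, by 1.59 over WT (1.1003 to 2.31) and by 1.56 over 5mRNA (1.09 to 2.23). *kif11*, the motor that pushes spindle poles apart, had 3.04, 2.19 and 2.73 RPKM, and a ratio of 1.11 in 5MO over WT (0.865 to 1.44) but of 1.39 in 5MO over 5mRNA (1.07 to 1.80). For *kif22*, which pushes chromosome arms to the equator, the 5mRNA library was the low one: it had 2.73 RPKM in 5MO, 1.96 in 5mRNA and 3.18 in WT, and a ratio of 0.617 in 5mRNA over WT (0.443 to 0.855).

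The remaining kinesins with a mean of at least 1 RPKM were not separated in any comparison. *kif15*, which backs up *kif11*, had 1.57 RPKM in 5MO, 1.44 in 5mRNA and 1.36 in WT. *kif23*, a central spindle motor of cell cleavage, had 1.59, 1.55 and 1.14 RPKM and a ratio of 1.39 in 5MO over WT (0.976 to 1.99). *kif2c*, which shortens microtubules at kinetochores, had 1.34, 1.32 and 1.08 RPKM and a ratio of 1.24 (0.776 to 1.98).

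Of the kinesins below 1 RPKM, *kif14* and *kif20bb* were named after their values were seen. *kif14* had 37 reads in 5MO, 16 in 5mRNA and 35 in WT, with ratios of 0.408 in 5mRNA over WT (0.211 to 0.757) and 2.49 in 5MO over 5mRNA (1.35 to 4.79). *kif20bb*, the paralog of *kif20ba*, had 35, 20 and 38 reads and ratios of 0.470 in 5mRNA over WT (0.259 to 0.828) and 1.88 in 5MO over 5mRNA (1.06 to 3.44). In 5mRNA over WT, the interval of *kif20ba*, from 0.682 to 1.53, overlaps that of *kif20bb*. All 11 mitotic kinesins summed to 818 reads in 5MO, 614 in 5mRNA and 652 in WT, a ratio of 1.21 in 5MO over WT (1.09 to 1.34), of 0.840 in 5mRNA over WT (0.751 to 0.940) and of 1.43 in 5MO over 5mRNA (1.29 to 1.60).

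**Figure D4:**
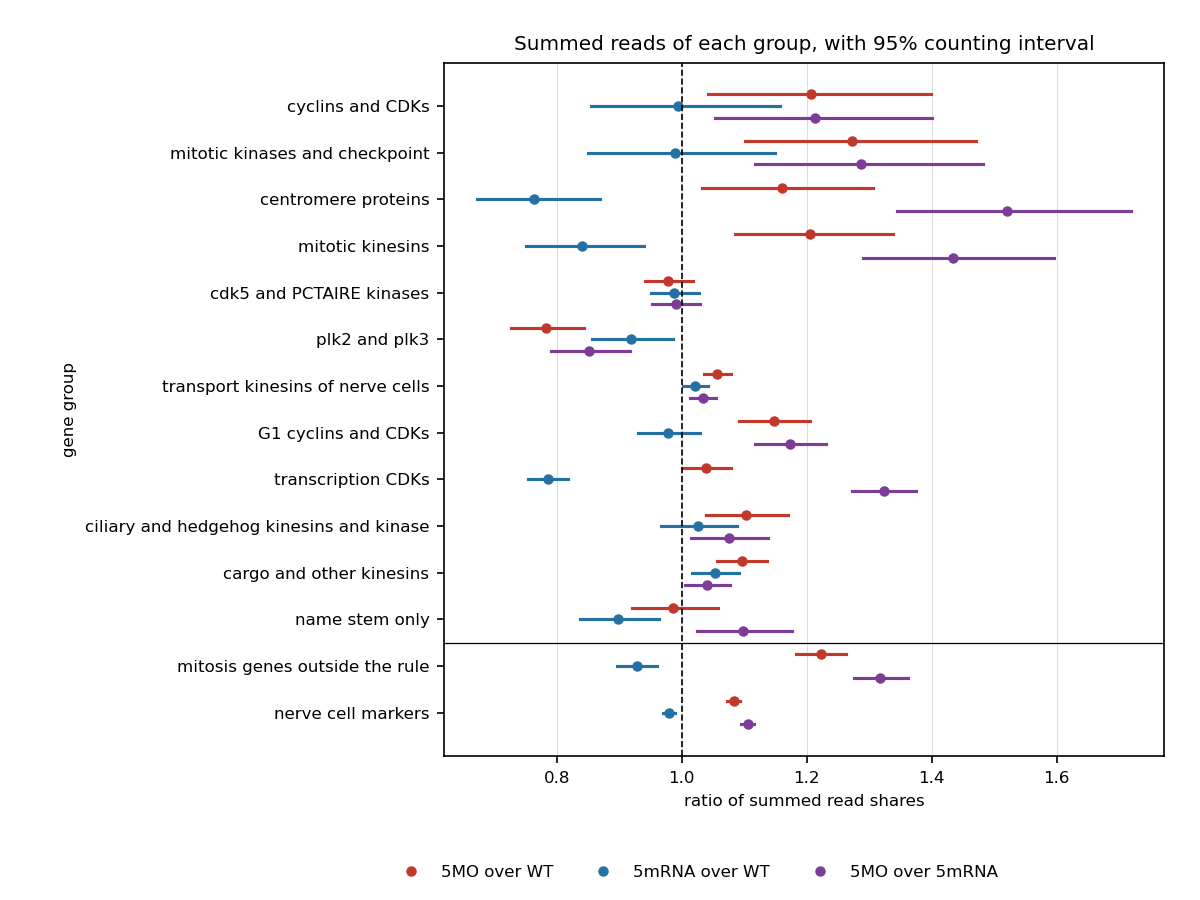
Ratio of summed read shares with its 95% counting interval for the 12 role groups of the members and, below the line, for the mitosis genes outside the name rule and the nerve cell markers, in 5MO over WT (red), 5mRNA over WT (blue) and 5MO over 5mRNA (purple). In 5MO over WT the 4 mitotic groups lie between 1.16 and 1.27. The group labelled cdk5 and PCTAIRE kinases, which also holds *cdk14*, *cdk15* and the *cdk5* activators, lies at 0.979. *plk2* and *plk3* lie at 0.783 and the transport kinesins at 1.06.

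The resting and nerve members had medians near 0 in all 3 comparisons, with single genes that differed, among them *kif5ba*, *kif3cb*, *kif21a*, *cdk5r2b*, *plk3* and *plk2b*. For the 23 of them with a mean RPKM of at least 1, the median log2 ratio was -0.01 in 5MO over WT, 0.01 in 5mRNA over WT and -0.02 in 5MO over 5mRNA, and 0 were 1.5-fold higher or lower in any comparison, where 5.23% and 5.74%, 4.87% and 5.37%, and 5.6% and 5.37% of the 19172 genes with such a mean were. These genes have more reads than most, so their ratios scatter less. Their counting intervals lay above 1 for 7 and below 1 for 4 in 5MO over WT, with 20.9% and 20.7% among all genes. They lay above 1 for 5 and below 1 for 4 in 5mRNA over WT, with 19.1% and 18.8%, and likewise for 5 and 4 in 5MO over 5mRNA, with 22.3% and 22.4%. The role groups of this class went opposite ways in 5MO over WT. Their summed ratios were 1.06 for the transport kinesins (1.04 to 1.08) and 0.783 for *plk2* and *plk3* (0.727 to 0.844). The group called cdk5 and PCTAIRE kinases, which also holds *cdk14*, *cdk15* and the *cdk5* activators, gave 0.979 (0.941 to 1.02).

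The axonal motors were the most abundant. *kif5aa*, the heavy chain of conventional kinesin typical of nerve cells, had 5467 reads in 5MO, 6046 in 5mRNA and 5278 in WT, and its ratio in 5MO over WT was 0.995 with a narrow interval from 0.958 to 1.03. *kif1b* was at 50.3 RPKM in 5MO, 44.6 in 5mRNA and 45.0 in WT, a ratio of 1.12 in 5MO over WT (1.06 to 1.18). The synaptic vesicle motors *kif1ab* and *kif1aa* had 25.02 and 21.0 RPKM in 5MO, 24.9 and 22.0 in 5mRNA, and 22.8 and 21.3 in WT.

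Of these, *kif1ab* was higher in 5MO than in WT by 1.095 (1.04 to 1.16), and *kif1aa* gave 0.983 (0.936 to 1.03). *kif5bb*, a conventional kinesin found in many tissues, was at 19.3 RPKM in 5MO, 18.5 in 5mRNA and 19.6 in WT, with a ratio of 0.987 in 5MO over WT (0.909 to 1.07). The highest ratio in 5MO over WT among the transport kinesins with a mean of at least 1 RPKM was that of *kif3cb*, 1.33 (1.16 to 1.53), followed by *kif21a* at 1.29 (1.13 to 1.46).

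*kif5ba*, the paralog of *kif5bb*, was at 21.4 RPKM in 5MO, 14.7 in 5mRNA and 16.8 in WT, from 1593, 1172 and 1200 reads. All 3 libraries were separated, with ratios of 1.28 in 5MO over WT (1.18 to 1.38), 0.871 in 5mRNA over WT (0.803 to 0.945) and 1.46 in 5MO over 5mRNA (1.36 to 1.58). The genes *kif3cb*, *kif21a* and *kif5ba* were named after their values were seen. Of the genes of this class given here, *kif5ba*, *kif1aa* and *cdk5r2a* overlap another gene of the table.

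Of the *cdk5* activators given here, the first 2 were not separated between 5MO and WT. *cdk5r1b*, a p35-type activator, had 34.2 RPKM in 5MO, 34.0 in 5mRNA and 32.9 in WT, a ratio of 1.04 in 5MO over WT (0.948 to 1.14). *cdk5r2a* had 26.3, 24.1 and 26.9 RPKM and a ratio of 0.979 (0.894 to 1.07). Its paralog *cdk5r2b* was lower in 5MO, at 16.2 RPKM in 5MO, 21.1 in 5mRNA and 18.7 in WT, with a ratio of 0.867 over WT (0.790 to 0.952) and of 0.765 over 5mRNA (0.700 to 0.836).

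The PCTAIRE kinase *cdk16* had 33.7 RPKM in 5MO, 27.4 in 5mRNA and 30.2 in WT, a ratio of 1.11 in 5MO over WT (1.01 to 1.22). *plk3* (ENSDARG00000038754, chromosome 2 from 35621180 to 35629332), a stress-responsive Polo-like kinase, was at 17.7 RPKM in 5MO, 21.0 in 5mRNA and 26.5 in WT, from 379, 484 and 545 reads. Both injected libraries were below WT, with ratios of 0.668 in 5MO (0.584 to 0.763) and 0.792 in 5mRNA (0.700 to 0.897). *plk2b*, named after its values were seen and known in mammals for its induction by nerve activity, gave 0.746 in 5MO over WT (0.661 to 0.842), whereas its paralog *plk2a* gave 1.01 (0.872 to 1.16).

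Within the Polo-like family, *plk1* was thus higher in 5MO than in WT, *plk3* and *plk2b* were lower, and *plk4*, the kinase of centriole duplication, below 1 RPKM and named after its values were seen, had 61 reads in 5MO, 47 in 5mRNA and 46 in WT with a ratio of 1.27 (0.855 to 1.91). At the low end of the nerve class, *kif17*, a dendritic motor, had 1 read in 5MO, 2 in 5mRNA and 6 in WT, and no fold is given.

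**Figure D5:**
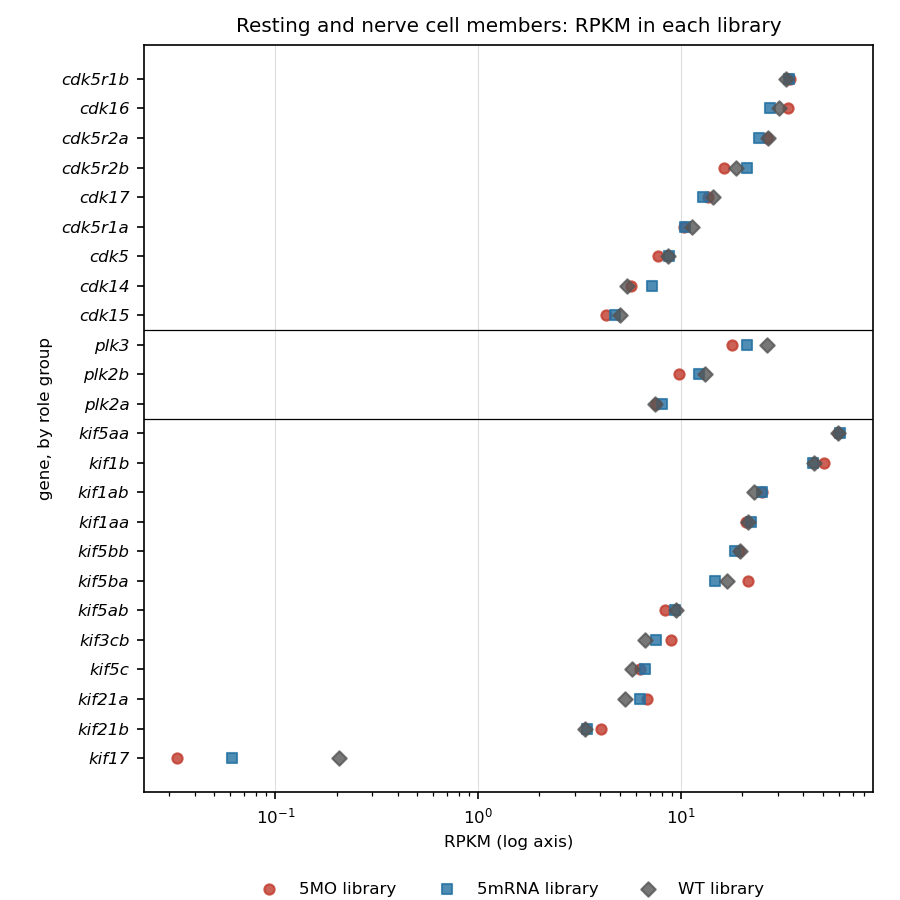
RPKM (log axis) of the 24 resting and nerve members in the 5MO, 5mRNA and WT libraries, 1 symbol per library. The groups are cdk5 and PCTAIRE kinases (with *cdk14*, *cdk15* and the *cdk5* activators), *plk2* and *plk3*, and transport kinesins. For most genes the 3 symbols lie close together; among the abundant genes they lie apart for *plk3*, at 17.7 in 5MO, 21.0 in 5mRNA and 26.5 in WT, and for *kif5ba*, at 21.4, 14.7 and 16.8.

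The D cyclins and their kinases, which act before a cell commits to divide, included 4 genes with a higher mean RPKM than any mitotic member, *ccnd1*, *ccnd2a*, *cdk4* and *cdk6*, and 3 scarce ones. *ccnd1*, the main D cyclin, was at 50.2 RPKM in 5MO, 41.8 in 5mRNA and 44.7 in WT, a ratio of 1.12 in 5MO over WT (1.05 to 1.20) and of 1.20 in 5MO over 5mRNA (1.12 to 1.28). *cdk4*, which overlaps another gene on the opposite strand, had 17.8, 15.9 and 14.4 RPKM and a ratio of 1.24 in 5MO over WT (1.12 to 1.36). *cdk6* had 7.93, 5.75 and 6.44 RPKM and a ratio of 1.23 in 5MO over WT (1.04 to 1.45).

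These 3 were higher in 5MO than in WT and than in 5mRNA. *ccnd2a*, at 16.8 RPKM in 5MO, 15.8 in 5mRNA and 16.6 in WT, and *ccnd2b*, at 1.65, 1.47 and 1.75 RPKM, were not separated in any comparison. *ccnd3* had 2, 6 and 1 reads, too few for a ratio. *cdk21* had 0 reads in 5MO, a count that allows up to 3 reads, 14 in 5mRNA and 4 in WT. The counting interval of *cdk21* in 5MO over 5mRNA ends at 0.325, and that over WT, at 1.46, includes 1.

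Among the other members with a mean of at least 1 RPKM, the widest difference between 5MO and WT was that of *cenpv*. This gene was not counted among the mitotic members. It had 37 reads in 5MO, 34 in 5mRNA and 12 in WT, so that both injected libraries were above WT, by 2.96 in 5MO (1.51 to 6.24) and 2.53 in 5mRNA (1.28 to 5.36). *cdk5rap1*, an enzyme that modifies transfer RNA despite its name, was at 1.61 RPKM in 5MO, 3.67 in 5mRNA and 2.44 in WT. The injected libraries lay on opposite sides of WT, with ratios of 0.663 in 5MO (0.469 to 0.931) and 1.51 in 5mRNA (1.15 to 1.99).

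The next in size were cargo and other kinesins outside mitosis. *kif13bb* gave 1.31 in 5MO over WT (1.13 to 1.51), *kif16bb* 1.28 (1.04 to 1.58) and *kif26aa* 1.26 (1.09 to 1.46). Their levels were 2.92, 2.38 and 2.94 RPKM in 5MO, 2.42, 2.52 and 2.86 RPKM in 5mRNA, and 2.24, 1.86 and 2.33 RPKM in WT. The symbol *kif1c* stands on 2 rows, on chromosome 5 and on chromosome 23, and they were counted as separate members.

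The transcription CDKs, named for their action on RNA polymerase or its cofactors although *cdk7* also activates the CDKs of the division cycle, had the lowest ratio in 5mRNA over WT after the centromere proteins, at 0.785 (0.755 to 0.817), with 1.04 in 5MO over WT (1.0005 to 1.08). In 5mRNA over WT, 5 of the 8 had intervals below 1 and 1 an interval above 1, with 18.8% and 19.1% among all genes with a mean of at least 1 RPKM. In 5MO over 5mRNA the summed ratio was 1.32 (1.27 to 1.38), near that of the mitotic members. There 6 of the 8 had intervals above 1 and 1 an interval below 1, with 22.3% and 22.4% among the same genes. *cdk13*, named after its values were seen, was at 52.0 RPKM in 5MO, 35.3 in 5mRNA and 51.0 in WT, a ratio of 0.693 in 5mRNA over WT (0.650 to 0.739).

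Mitosis genes that the name rule does not catch were taken as a list, chosen with earlier results of these data known. Of its 48 symbols, some of them an older and a newer name of the same gene, 45 were found. In 5MO, 38 were above WT and 7 below, where 50.7% and 49.1% of all genes were, with a median log2 ratio of 0.24. Against 5mRNA, 38 were above and 7 below in 5MO, where 49.5% and 50.3% of all genes were, with a median of 0.37. In 5mRNA against WT 14 were above and 31 below, where 51.1% and 48.7% of all genes were, with a median of -0.15. By counting interval, 16 were higher and 2 lower in 5MO than in WT, 23 higher and 1 lower in 5MO than in 5mRNA, and 1 higher and 13 lower in 5mRNA than in WT. Among all genes the shares were 19.0% and 18.5%, 19.9% and 20.0%, and 17.5% and 17.0% in the same order. The summed ratio was 1.22 in 5MO over WT (1.18 to 1.26), 0.928 in 5mRNA over WT (0.896 to 0.960) and 1.32 in 5MO over 5mRNA (1.28 to 1.36).

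The proliferation marker *mki67* was at 3.72 RPKM in 5MO, 1.96 in 5mRNA and 2.16 in WT, from 619, 350 and 345 reads. It was higher in 5MO by 1.72 over WT (1.51 to 1.97) and by 1.90 over 5mRNA (1.67 to 2.18). *mybl2b*, the zebrafish gene of a transcription factor of dividing cells, had 144 reads in 5MO, 47 in 5mRNA and 51 in WT, and was higher by 2.71 over WT (1.96 to 3.81). The outer kinetochore genes *spc24* and *spc25* were the 2 lower ones in 5MO, with ratios of 0.581 (0.343 to 0.967) and 0.531 (0.296 to 0.928) in 5MO over WT, and these genes of the list were named after their values were seen.

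Markers of other cell types also differed between the libraries. Of 25 nerve cell markers 21 were above WT in 5MO and 4 below, where 50.7% and 49.1% of all genes were, with a median log2 ratio of 0.15 and summed levels of 2019 RPKM in 5MO, 1870.3 in 5mRNA and 1883 in WT. In 5mRNA against WT 9 were above and 16 below, where 51.1% and 48.7% of all genes were, and the counting interval lay above 1 for 3 and below 1 for 10, with 17.5% and 17.0% among all genes. Their summed read ratio was 1.08 in 5MO over WT (1.07 to 1.09), 0.980 in 5mRNA over WT (0.9702 to 0.9898) and 1.11 in 5MO over 5mRNA (1.09 to 1.12). The 9 neural progenitor markers found of 10 summed to 383.9, 321.4 and 339.7 RPKM, with a read ratio of 1.09 in 5MO over WT (1.05 to 1.12), 5 above and 4 below. The interval lay above 1 for 3, *fabp7a*, *nes* and *notch1a*, and below 1 for 0, with 19.0% and 18.5% among all genes. The ratio was 1.30 for *fabp7a* (1.23 to 1.38), from 2467 of the 8354 marker reads in 5MO and 1820 of 7389 in WT. It was 0.993 for *gfap* (0.943 to 1.04), the marker with the most reads. The median log2 ratio of the 9 was 0.08, and the difference in the sum came largely from *fabp7a*. These genes were named after their values were seen.

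The 4 fast muscle markers had summed read ratios of 1.07 in 5MO over WT, 0.937 in 5mRNA over WT and 1.14 in 5MO over 5mRNA. In 5mRNA over WT *actc1b* was at 0.919 and *myhz2* at 0.867, both lower. There *mylpfa* was at 0.999 and *tnnt3b* at 1.007, with intervals that include 1. In 5MO over 5mRNA the 4 ran from 1.01 for *tnnt3b* to 1.47 for *myhz2*. The 4 red blood cell markers found of 5 had summed ratios of 0.949 in 5MO over WT and 0.828 in 5MO over 5mRNA. In 5mRNA over WT the sum gave 1.15 (1.103 to 1.19), through *alas2* at 1.27 (1.21 to 1.33). There *hbbe1.1* was at 0.997, *hbbe2* at 0.942 and *slc4a1a* at 1.004, with intervals that include 1. In 5MO over WT *alas2* was at 0.875 and *slc4a1a* at 1.59, on either side of 1. The 4 germ cell markers, at 2.70, 3.31 and 2.60 RPKM in all, had a ratio of 1.11 in 5MO over WT with an interval from 0.829 to 1.48. Every marker found had reads in the 3 libraries, and the germ cell markers were close to 0. The part of these cell types in the mitotic differences was not tested.

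In the genome the members were spread over 24 chromosomes, and chromosome 17 held 12 of the 101 (11.9%), 7 of them mitotic, where it holds 3.30% of all named genes. The 7 are *cdk1*, *kif11*, *kif20ba*, *cenpf*, *cenpo*, *plk4* and *bub1bb*, and their ratios in 5MO over WT ran from 0.973 for *cdk1* to 1.59 for *kif20ba*. The closest members that do not overlap, *plk2b* and *cenph*, lie 81680 bases apart on chromosome 8 and had ratios of 0.746 and 4.61 in 5MO over WT.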

How the data were processed

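Total RNA of whole larvae was sequenced, 1 library per group, and grouped by the labels. Read pairs were aligned with STAR 2.5.2a to danRer10 per the submitters' processing notes; the counting tool, the annotation and the use of strand are not given in the sources used here. The authors deposited RPKM values per gene, with coordinates, and STAR mapping summaries with read pair numbers (a file of another kind, per the file headers). The 33 rows that name no gene, with 35.7% to 36.1% of the RPKM sum, were left out, and 0 columns of sample values went unused.

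Members and lists were chosen with earlier results of these data known. RPKM values fall on whole-number steps, from which read totals and the reads of 25905 genes (100% of those above 0) were recovered as the smallest whole numbers; true reads may be a multiple, which would narrow the intervals. Log2 ratios used RPKM + 0.1, a mean RPKM of at least 1 (or 0.1 where stated) and a fold of 1.5. Named were all mitotic members with a mean RPKM of at least 1, the 10 most abundant resting and nerve members, D cyclins with *cdk4* and *cdk6*, the 5 other members with the largest difference between 5MO and WT, and members under 3 reads. Lists were mitosis genes outside the name rule and markers of nerve cells, neural progenitors, red blood cells, fast muscle and germ cells. All 101 gene IDs matched the reference names, 76 with the same symbol. No sequence is shown.

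On simulated data, for 5MO against WT, 3 of 3 totals and 92.8% of 25531 genes were recovered exactly. The direction was right for 200 of 200 changed genes, and 95.0% of intervals of 2000 unchanged genes held 1. Reads were drawn with counting error alone, which the interval assumes, so the last share follows from the design. The changed genes had a fold of 2 and more reads than the median mitotic member. Smaller changes of scarce genes were not checked. Alternatives were pseudocounts of 1 and 0.01, other filters, a fold of 2, other scalings and, added after seeing the data, values under 3 reads raised to 3 and overlapping loci left out. Python 3.11.15, pandas 2.3.3, numpy 2.4.6, scipy 1.17.1 and matplotlib 3.10.9 were used.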

Additional observations from a re-analysis of the deposited data

How the results depend on the processing

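No paired analysis was possible because each group has 1 library, and for the same reason no replicate could be left out. Each median log2 ratio was set against the half-width, in log2, of the counting interval of the summed read ratio of the same class or list. That width is not an error of the median. Of 78 medians under alternatives, 63 moved by no more than this width and 15 by more. Of those that began farther from 0 than this width, 0 changed sign. Of 120 counts in the comparisons of mitotic and of resting and nerve members, 97 kept within 1.5 times and 23 did not. A count of 0 that stayed at 0 was scored as kept. All counts of resting and nerve members began at 0, as did the mitotic members lower in 5MO than in WT or 5mRNA. The 97 thus do not measure how stable the counts above 0 were. The scaling factors lay between 0.992 and 1.01, so scaling moved no median of all genes by as much as 0.1. A mean RPKM of at least 1 was reached by *cenpw* and *kif20ba* only through 5MO, and by *cenpk* only through the injected libraries. Such a filter favours members that are high there, and all of these genes are among the 5 counted next. For the 22 mitotic members with a mean RPKM of at least 1, members 1.5-fold higher in 5MO than in WT numbered 5, and 2 with a pseudocount of 1, 2 at a fold of 2, 2 with overlapping loci left out, and 8 with a mean of at least 0.1 or no filter. Those higher in 5MO than in 5mRNA numbered 4, and 2, 1, 1 and 12 under the same settings. In 5mRNA over WT, 1 was higher, and 2 with a mean of at least 0.1 or no filter, while 3 were lower, and 1 with a pseudocount of 1, 0 at a fold of 2 and 7 with a mean of at least 0.1 or no filter. The median in 5MO over 5mRNA was 0.35, and 0.26 with a pseudocount of 1 and 0.12 with overlapping loci left out. With a mean of at least 5 only *aurkb* was left, with medians of 0.47, -0.075 and 0.55 in 5MO over WT, 5mRNA over WT and 5MO over 5mRNA and counts of 0. Of the resting and nerve members, 1 was 1.5-fold lower in 5MO than in WT with no filter and 1 under median of ratios scaling, 1 was lower in 5mRNA than in WT with no filter, and the median in 5MO over WT was 0.032 with overlapping loci left out. For the mitosis genes outside the name rule, the medians over the 34 with a mean of at least 1 were 0.22, -0.21 and 0.49 in the same 3 comparisons. A pseudocount of 1 gave 0.17, -0.13 and 0.31. A mean of at least 0.1, or no filter, gave -0.15 and 0.37 in the last 2 comparisons, and a mean of at least 5 gave -0.13 and 0.29. Depth limits the mitotic members most: 20 of 37 had under 50 reads in 5MO, 21 in 5mRNA and 22 in WT.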
